A study of Mus musculus with 18 samples.

Results

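The enzymes that place, copy, read and remove cytosine methylation were followed here in single 2-cell mouse embryos, as 10 RefSeq transcripts of 9 genes: Dnmt1, Dnmt3a in a long and a short form, Dnmt3b, Dnmt3l, Tet1, Tet2, Tet3, Uhrf1 and Tdg. The transcripts were taken by accession number, and all 10 were among the 26823 transcripts listed for every embryo. RNA of 18 individual embryos was amplified and sequenced. Of these embryos, 9 were fathered by wild-type males (fathers 1, 2 and 3) and 9 by Parg(110)-/- males (fathers 6, 7 and 8). All were on the 129SVE background, with 3 embryos from each father. The first number of a sample title was read as the father, which the title itself does not say. The paper describes 3 Parg(110)-/- fathers with 3 embryos each, and its text does not give the number of wild-type fathers. Mothers were wild-type 129SVE females mated naturally, so the genotype of a group is that of the father, and each embryo is named by father and embryo (7-3 is the third embryo listed for father 7). Parg encodes poly(ADP-ribose) glycohydrolase, the enzyme that degrades poly(ADP-ribose), and Parg(110)-/- males lack its largest isoform. Embryos of these males carry 1 disrupted Parg allele by descent, from the father, beside the intact maternal allele and the mRNA stored in the egg. Parg itself (NM_011960) was counted in all embryos, with 32.0 to 138 CPM (counts scaled to a file total of 1000000) and a median of 78.3 in the wild-type group and 25.2 to 77.3 CPM with a median of 46.7 in the Parg(110)-/- group. The comparison asks whether the methylation machinery in the early embryo differed with the genotype of the father.

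After fertilization the methylated cytosines of the sperm genome are lost in large part over the first divisions, by oxidation and by replication without copying. DNMT1 copies methylation to the new strand of replicated DNA, and UHRF1, a reader of sites methylated on a single strand, recruits it there. DNMT3A and DNMT3B methylate new sites, and DNMT3L, which has no catalytic activity of its own, stimulates them during growth of the oocyte. TET enzymes oxidize methylated cytosine, TET3 being the one known for the zygote, and TDG excises the most oxidized forms for base excision repair. Part of the mRNA of a 2-cell embryo is inherited from the egg and not yet degraded, so a level measured here can reflect maternal stores as well as transcription in the embryo. Levels here are shares of the counts of an amplified embryo, so a change in its total amount of RNA cannot be seen in them.

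Totals lay between 2852858 and 13355161 counts per embryo, so that 1 count was worth 0.0749 to 0.3505 CPM. Median totals were 7594021 counts in the wild-type and 7191377 in the Parg(110)-/- group. The median number of transcripts detected was lower in the Parg(110)-/- group, with 12064 to 14047 per embryo (median 12678) against 11823 to 16436 (median 13997) in the wild-type group. The median correlation of an embryo with the others over log2 values was 0.755 to 0.791 in the Parg(110)-/- group and 0.770 to 0.814 in the wild-type group. The part of these differences between the groups' libraries in the fold changes given here was not tested. Of 18 oocyte and 2-cell markers found, 17 had a mean of at least 1 CPM, led by Npm2, Nlrp5 and Dppa3. Their summed level was 1892 to 3396 CPM in the wild-type group and 1524 to 5043 CPM in the Parg(110)-/- group. Of 10 cumulus and granulosa cell markers, 5 were at 0 in every embryo (Foxl2, Inha, Amh, Ptx3 and Fshr). Another 3 had a mean of at least 1 CPM (Amhr2, Cyp19a1 and Col4a1), and 1 of the 10 was counted in every embryo. The list summed to 7.01 to 46.1 CPM in the wild-type and 5.69 to 20.5 CPM in the Parg(110)-/- group. Of 8 sperm and spermatid markers, 5 were at 0 in every embryo (Prm1, Prm3, Tnp1, Tnp2 and Odf1), and the list reached at most 3.44 and 4.36 CPM. Blood markers summed to at most 2.48 and 14.2 CPM, and markers of later cleavage and blastocyst to 14.8 to 63.8 and 22.8 to 55.9 CPM. The part of these markers in the results was not tested.

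**Figure D1:**
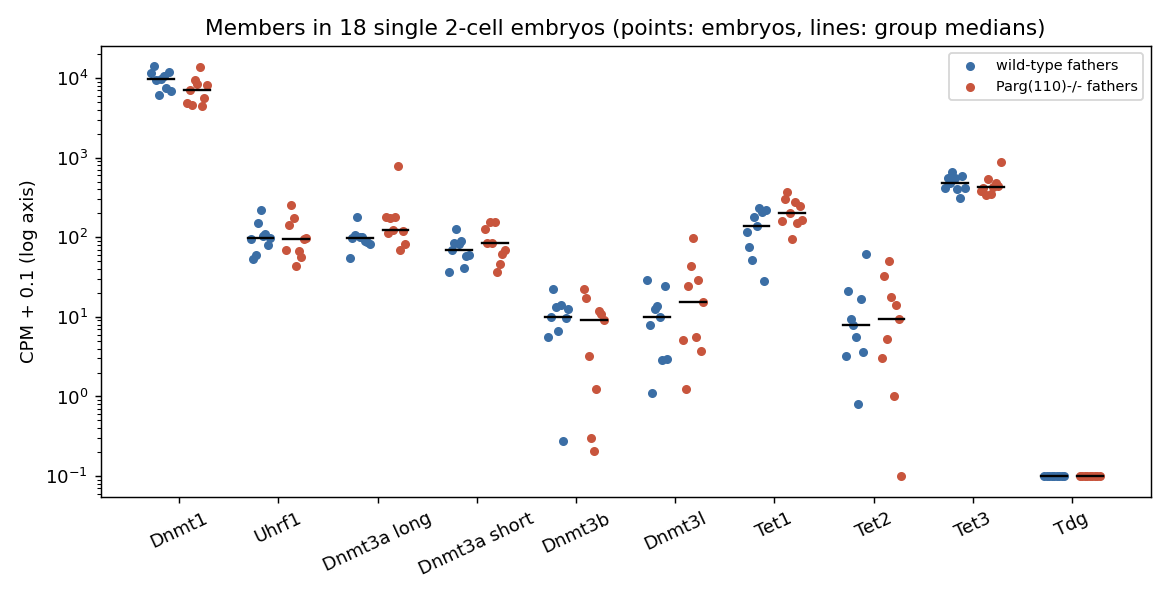
Level of each of the 10 transcripts in CPM plus 0.1 on a log axis, 1 point per embryo, blue for wild-type and red for Parg(110)-/- fathers, with black lines at the group medians. Dnmt1 lay highest, between 4393 and 13943 CPM, the points of the 2 groups overlapped for every counted transcript, and Tdg lay at 0 in all 18 embryos.

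Dnmt1 (NM_010066), on chromosome 9 from 20711650 to 20757317 (mm9, minus strand), was the most abundant of these transcripts by a wide margin. Its mean level held rank 3 among all 26823 transcripts, and it took 0.856% of the counts of an average embryo. In embryos of wild-type fathers it had a lowest value of 6015 CPM (embryo 2-1), a median of 9766 and a highest value of 13943 (embryo 1-2). In embryos of Parg(110)-/- fathers the lowest was 4393 CPM (embryo 8-1), the median 7118 and the highest 13700 (embryo 7-3). The groups overlapped, but 4 Parg(110)-/- embryos (6-1, 6-3, 8-1 and 8-2) lay below every wild-type embryo. The group means were 9725 ± 2595 and 7388 ± 3022 CPM (SD, n = 9 each).

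Uhrf1 (NM_010931), the partner that brings DNMT1 to replicated DNA, lies on chromosome 17 from 56442744 to 56462909. It had 52.6 to 217 CPM with a median of 98.1 in the wild-type group, and 43.1 to 254 CPM with a median of 94.98 in the Parg(110)-/- group. The highest embryo was 6-3 and the lowest 7-2, both of Parg(110)-/- fathers, so the range of that group enclosed the wild-type range. The files list 3 other Uhrf1 transcripts, of which NM_001111078 differed from NM_010931 by -73 to 523 counts per embryo. Adjusted for transcript length, Dnmt1 exceeded Uhrf1 in 18 of 18 embryos, by a median of 50.3 times. Of the 50-base stretches of Uhrf1, 29.7% also occur elsewhere in the genome, against 0 for Dnmt1, and reads with several places were excluded. The part of this in the ratio was not tested.

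Dnmt3a was counted on 2 transcripts that share most of their sequence. The long form, NM_007872, encodes the full enzyme, and the short form, NM_153743, begins at an internal promoter and is the form known from oocytes and embryonic stem cells. The gene lies on chromosome 12 from 3806007 to 3914443. In the GENCODE annotation of mm9 the long transcript has 4378 bases that the short one lacks, of which 889 lie upstream of the start of the short one, and the short one has 117 bases that the long one lacks. Which bases each of the 2 RefSeq transcripts was counted on is not given in the sources used here. RefSeq promoters of the gene lie at 3 starts, of which 2 are close together at its upstream end and 1 is internal. The outermost and the internal one are shown to place the upstream and the internal start of the gene, with every CG dinucleotide in capitals. The sequences do not tell which start each counted transcript used. They were given for GRCm38.p6 and found unchanged at the same positions in mm9, as chr12:3806730-3807029, which ends just before the annotated long transcript, and chr12:3891494-3891793, which spans the start of the annotated short one, both on the plus strand.

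Dnmt3a upstream promoter: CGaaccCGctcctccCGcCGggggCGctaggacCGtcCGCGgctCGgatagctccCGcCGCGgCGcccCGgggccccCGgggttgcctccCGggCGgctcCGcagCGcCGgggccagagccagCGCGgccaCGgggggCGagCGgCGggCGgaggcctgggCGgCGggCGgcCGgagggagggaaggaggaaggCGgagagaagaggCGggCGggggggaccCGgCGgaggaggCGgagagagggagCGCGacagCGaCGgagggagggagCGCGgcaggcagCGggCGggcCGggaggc

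Dnmt3a internal promoter: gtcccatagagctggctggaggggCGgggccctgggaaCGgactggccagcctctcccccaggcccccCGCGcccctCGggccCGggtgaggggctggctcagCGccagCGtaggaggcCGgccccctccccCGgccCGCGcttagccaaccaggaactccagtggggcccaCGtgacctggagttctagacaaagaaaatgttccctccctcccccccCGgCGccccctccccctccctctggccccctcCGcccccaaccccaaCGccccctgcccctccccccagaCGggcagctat

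The upstream promoter shown held 46 CG dinucleotides, its neighbour 47 and the internal one 18, against a median of 7 over 32851 promoters of the same length. At least as many were found in 1.6% of those promoters for the upstream promoter shown and in 29.7% for the internal one. The letters CG read the same on both strands, and neither count says anything about methylation in these embryos, which was not measured.

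The long form had 54.3 to 179 CPM with a median of 97.9 in the wild-type group, the highest being embryo 2-1. In the Parg(110)-/- group it had 69.1 to 788 CPM with a median of 122. A single embryo, 7-3, held the value of 788 CPM (3462 counts), against 178 in the next embryo of its group. The short form had 36.5 to 128 CPM with a median of 69.2 in the wild-type group and 36.2 to 156 CPM with a median of 84.0 in the Parg(110)-/- group. Embryo 7-3 was the lowest of all 18 embryos for the short form, with 36.2 CPM (159 counts). Its excess therefore lay in reads counted on the long transcript alone. In the other embryos the counts of the short form were between 0.456 and 0.902 of those of the long form, and in 7-3 they were 0.046 of them. The counts per transcript do not tell which exons the 3303 additional reads covered.

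**Figure D2:**
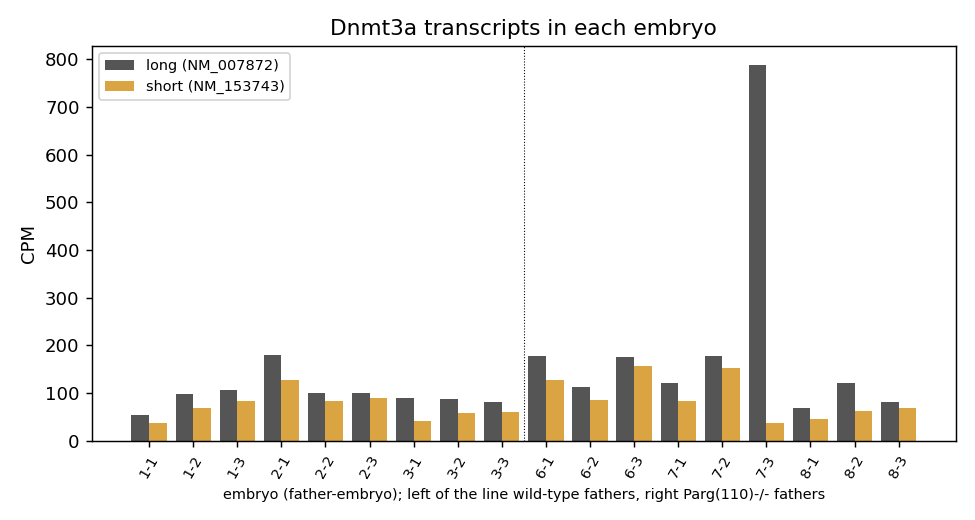
CPM of the long (grey bars) and the short (yellow bars) Dnmt3a transcript in each of the 18 embryos, wild-type fathers to the left of the dotted line. Embryo 7-3 reached 788 CPM on the long transcript with 36.2 CPM on the short one, while every other embryo had at most 179 CPM on the long transcript.

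Dnmt3b (NM_001003961), on chromosome 2 from 153475186 to 153513466, was at the edge of detection in some embryos. It had 0.174 to 22.3 CPM with a median of 9.79 in the wild-type group, and 0.107 to 22.5 CPM with a median of 8.90 in the Parg(110)-/- group. The 3 embryos of father 7 were the 3 lowest of their group, with 1, 1 and 5 counts, and a single wild-type embryo, 3-1, had 1 count as well. The remaining Parg(110)-/- embryos had between 34 and 281 counts. The files list 4 further Dnmt3b transcripts, of which NM_001122997 had identical counts in every embryo.

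Dnmt3l (NM_019448), on chromosome 10 from 77504692 to 77526367, had 1.01 to 29.2 CPM with a median of 9.81 in the wild-type group. In the Parg(110)-/- group it had 1.15 to 98.5 CPM with a median of 15.2. The 2 highest embryos, 7-2 with 98.5 CPM and 7-1 with 42.8, were both of father 7, but the remaining embryo of this father had 5.47 CPM. A second transcript of the gene, NM_001081695, had the same count in 13 embryos and up to 71 counts more in the other 5. Adjusted for length, Dnmt3a (long form) exceeded Dnmt3b in 18 of 18 embryos, by a median of 4.41 times.

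Among the Tet genes, Tet3 (NM_183138), on chromosome 6 from 83312367 to 83391672, was the most abundant. It had 308 to 656 CPM with a median of 478 in the wild-type group, and 338 to 867 CPM with a median of 424 in the Parg(110)-/- group. Embryo 8-3 held the highest value, with 541 CPM in the next of its group. Tet3 varied least of all members between embryos of the wild-type group, with a coefficient of variation of 23.2%.

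Tet1 (NM_027384), on chromosome 10 from 62267318 to 62361866, encodes the Tet enzyme best known from embryonic stem cells. It had 28.2 to 236 CPM with a median of 137 in the wild-type group, and 94.7 to 365 CPM with a median of 203 in the Parg(110)-/- group. The highest 3 embryos, 6-3 with 365, 6-2 with 305 and 7-3 with 276 CPM, were of Parg(110)-/- fathers, and the lowest 4 (3-2, 1-3, 1-2 and 7-2) included 3 wild-type embryos. Tet2 (NM_001040400), on chromosome 3 from 133126643 to 133207354 and best known from blood cells, was sparse. It had 0.701 to 61.9 CPM with a median of 7.86 in the wild-type group and 0 to 50.3 CPM with a median of 9.41 in the Parg(110)-/- group. Tet2 had counts in 9 of 9 wild-type and 8 of 9 Parg(110)-/- embryos, a difference that Fisher's exact test did not separate (two-sided p = 1). Embryo 8-3 had 0 counts, which allows up to 0.417 CPM at its depth, counting error only.

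Levels were compared between genes as CPM per kilobase of the longest annotated transcript. They were not adjusted for sequence that also occurs elsewhere in the genome, where reads were excluded. The medians over 18 embryos were 1592 for Dnmt1, 39.6 for Tet3, 26.7 for Uhrf1, 11.98 for Tet1, 10.6 for the long form of Dnmt3a, 6.10 for Dnmt3l, 2.24 for Dnmt3b and 0.931 for Tet2. Dnmt1 exceeded Tet3 in 18 of 18 embryos, by a median of 36.4 times and at least 18.8 times. Tet3 exceeded Tet1 in 18 of 18 embryos, by a median of 3.85 times, and Tet1 exceeded Tet2 in 18 of 18, by a median of 7.80 times. Other neighbours in this order were not separated by their spread, since Tet3 exceeded Uhrf1 in 14, Uhrf1 exceeded Tet1 in 17, Tet1 exceeded Dnmt3a in 10, Dnmt3a exceeded Dnmt3l in 13, Dnmt3b exceeded Tet2 in 13, and Dnmt3l exceeded Dnmt3b in 13 of 18 embryos. Per kilobase of coding sequence Tet1 and Dnmt3a changed places, with Tet1 higher in 4 of 18 embryos. Of the summed level of the 3 Tet genes per kilobase, Tet3 held 63.1% to 95.9% with a median of 81.9% in wild-type embryos, and 54.4% to 87.3% with a median of 71.7% in Parg(110)-/- embryos.

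Tdg (NM_011561), on chromosome 10 from 82092573 to 82113544, was listed in every file with 0 counts, as was its other transcript, NM_172552. Over all embryos this was 0 of 140298661 counts, which allows a level of up to 0.0214 CPM, and in single embryos up to 0.225 to 1.05 CPM (3 counts of the total, counting error only). It was among 4297 of 26823 transcripts that had no count in any embryo. The authors kept only reads that mapped to a single place, so the sequence of Tdg was compared with the mm9 genome. Of 3453 windows of 50 bases along its longest transcript, 2729 (79.0%) occurred without any difference outside the gene, and within the coding sequence 1095 of 1217 did. For windows of 100 bases the shares were 66.0% and, within the coding sequence, 71.1%. For the other members the share of 50-base windows found elsewhere was 29.7% for Uhrf1, 8.1% for Dnmt3b, at most 0.6% for Tet1, Tet2 and Tet3, and 0 for Dnmt1, Dnmt3a and Dnmt3l. Long copies of Tdg lay on chromosome 7 from 83388075 to 83390961, on chromosome 10 from 41772364 to 41775242 and on chromosome 15 from 82346753 to 82349711, with further stretches on chromosome 19. A stretch of 90 coding bases (bases 188 to 277 of the annotated transcript) is shown with its counterpart in each long copy. All are read in the direction of Tdg and show the letters by which a read would have to be placed there. The stretch was picked as the first one examined that was nearly identical in every long copy. It does not represent the whole transcript. Capitals mark bases that differ from Tdg.

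Tdg: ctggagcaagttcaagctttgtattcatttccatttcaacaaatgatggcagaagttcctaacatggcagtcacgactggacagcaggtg

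Copy at chr7:83390778-83390867, minus strand: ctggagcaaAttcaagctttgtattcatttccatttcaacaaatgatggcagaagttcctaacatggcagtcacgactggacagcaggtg

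Copy at chr10:41775065-41775154, minus strand: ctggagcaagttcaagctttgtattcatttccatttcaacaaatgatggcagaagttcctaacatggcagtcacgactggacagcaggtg

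Copy at chr15:82346872-82346961, plus strand: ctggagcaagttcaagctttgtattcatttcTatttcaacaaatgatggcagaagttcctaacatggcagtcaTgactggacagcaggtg

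Counted from the first base shown, the copy on chromosome 7 differed by G10A, the copy on chromosome 10 by no base, and the copy on chromosome 15 by C32T and C74T. The count of 0 thus concerns reads with a single mapped place. The remaining windows, without an exact match outside the gene, gave no count either. The limits in CPM above were not scaled to the share of such windows. The count of 0 does not show that Tdg mRNA was absent, and how many reads of Tdg were dropped in mapping was not tested.

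**Figure D3:**
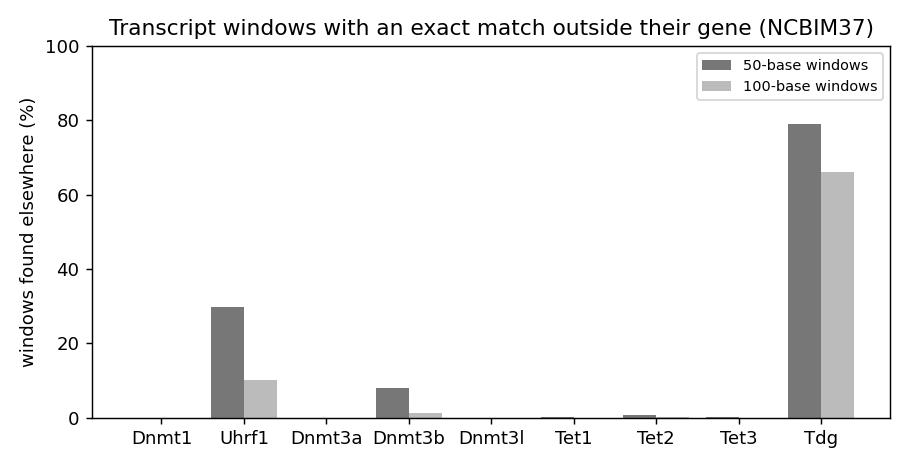
Share of all 50-base (dark bars) and 100-base (light bars) windows of each gene's longest transcript that occur without a difference outside the gene in the mm9 genome, in percent. Tdg stood at 79.0% and 66.0%, Uhrf1 at 29.7% and 10.2%, Dnmt3b at 8.1% and 1.3%, and the others near 0.

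The groups were compared with edgeR's quasi-likelihood test on the counts of all 18 embryos. The fit took in the 15333 transcripts for which 3 or more embryos had 10 or more counts. None of the 9 members tested passed an adjusted p-value of 0.1 (Benjamini-Hochberg over all transcripts), and neither did any other transcript (0% of those tested). The smallest adjusted p among the members was 0.622. DESeq2 also called 0 members, with 38 calls over all transcripts and a smallest adjusted p of 0.357 among the members. Before adjustment, 1 of 9 members, the long form of Dnmt3a, had a p-value below 0.05, as had 5.80% of all transcripts tested. Fold changes were above 1 for 6 members and below 1 for 3, of which 4 in all (Uhrf1, Dnmt3b, Tet2 and Tet3) turned direction in some alternative fit, with a median log2 fold change of 0.06 against -0.02 for all transcripts tested. Tdg could not be tested.

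Dnmt1 was lower on average in embryos of Parg(110)-/- fathers, by a log2 fold change of -0.39 (standard error 0.21, 95% confidence interval -0.83 to 0.05, adjusted p = 0.89). The difference did not pass the threshold, and the interval takes embryos of a father as independent. With counts summed per father the difference was -0.33 (95% confidence interval -0.89 to 0.24). It rested on the embryos of fathers 6 and 8: the father means were 11646, 8795 and 8732 CPM for wild-type fathers 1, 2 and 3, and 5517, 10573 and 6074 CPM for fathers 6, 7 and 8. All 3 embryos of father 7 had more Dnmt1 than any embryo of fathers 6 and 8. Without embryo 7-3, left out after seeing the data, the log2 fold change was -0.55 (95% confidence interval -0.96 to -0.14, adjusted p = 0.567). Without father 7 it was -0.75 (adjusted p = 0.537). It was smaller without father 6 (-0.22, adjusted p = 0.938), father 1 (-0.23, adjusted p = 1) or father 8 (-0.27, adjusted p = 0.949).

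**Figure D4:**
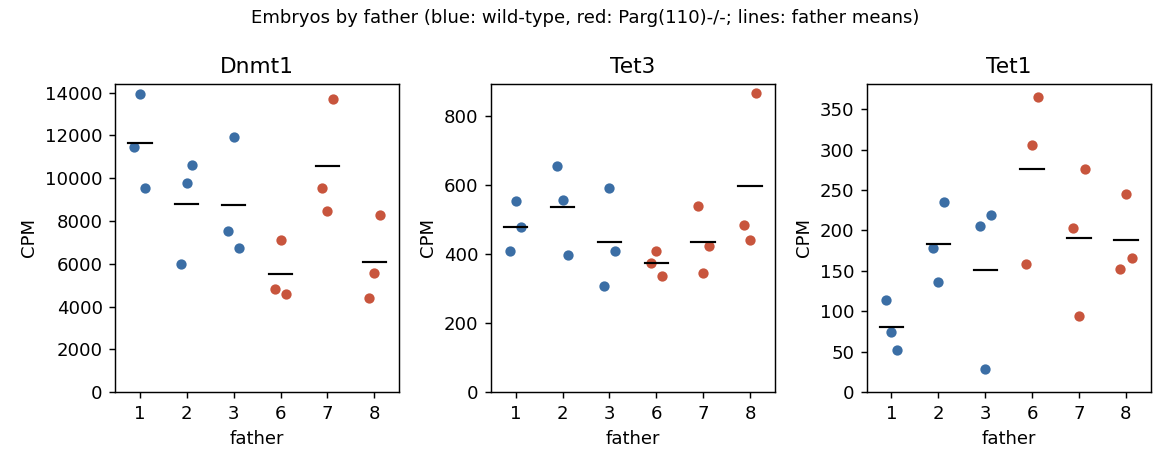
CPM of Dnmt1, Tet3 and Tet1 in the 3 embryos of each father, blue for wild-type and red for Parg(110)-/- fathers, with lines at the father means; axes start at 0. For Dnmt1 the mean of father 7 was 10573 CPM, between the wild-type fathers 1 (11646) and 2 (8795), whereas fathers 6 and 8 averaged 5517 and 6074.

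The long form of Dnmt3a was 2.04-fold higher in the Parg(110)-/- group (log2 fold change 1.03, standard error 0.39, 95% confidence interval 0.23 to 1.83, adjusted p = 0.622). Embryo 7-3 decided this value: without it the fold was 1.32 (log2 fold change 0.40, 95% confidence interval -0.18 to 0.97, adjusted p = 0.927). The short form, in which 7-3 was lowest, had a log2 fold change of 0.35 (95% confidence interval -0.35 to 1.04, adjusted p = 0.969), which was 0.07 without father 6 and 0.66 without father 2.

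Dnmt3l had a 2.18-fold higher fitted level in the Parg(110)-/- group, with a wide interval (log2 fold change 1.12, 95% confidence interval -0.42 to 2.67, adjusted p = 0.928). Without father 7 the fold was 1.11 (adjusted p = 1). For Dnmt3b the log2 fold change was -0.30 (95% confidence interval -2.05 to 1.45, adjusted p = 0.997), and without father 7, whose embryos had at most 5 counts, it was 0.24. Without father 6 the log2 fold change of Dnmt3b was -0.95. Both values thus depended on the embryos of father 7, which were low for Dnmt3b and, in 2 of 3 embryos, high for Dnmt3l. The value of Dnmt3b depended on father 6 as well.

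Tet1 was 1.59-fold higher in the Parg(110)-/- group (log2 fold change 0.67, standard error 0.35, 95% confidence interval -0.05 to 1.39, adjusted p = 0.887). The father means of Tet1 were 80.4, 184 and 151 CPM for fathers 1, 2 and 3, and 276, 191 and 188 CPM for fathers 6, 7 and 8, so that every Parg(110)-/- father averaged above every wild-type father. Without father 1 the log2 fold change was 0.40, and without father 6 it was 0.46. Tet3 had a log2 fold change of -0.04 with the narrowest interval of the members, -0.47 to 0.40 (adjusted p = 1). Tet2 (0.06, interval -1.75 to 1.86) and Uhrf1 (0.05, interval -0.68 to 0.77) had adjusted p-values of 1, and the Tet2 interval left room for large changes in either direction.

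**Figure D5:**
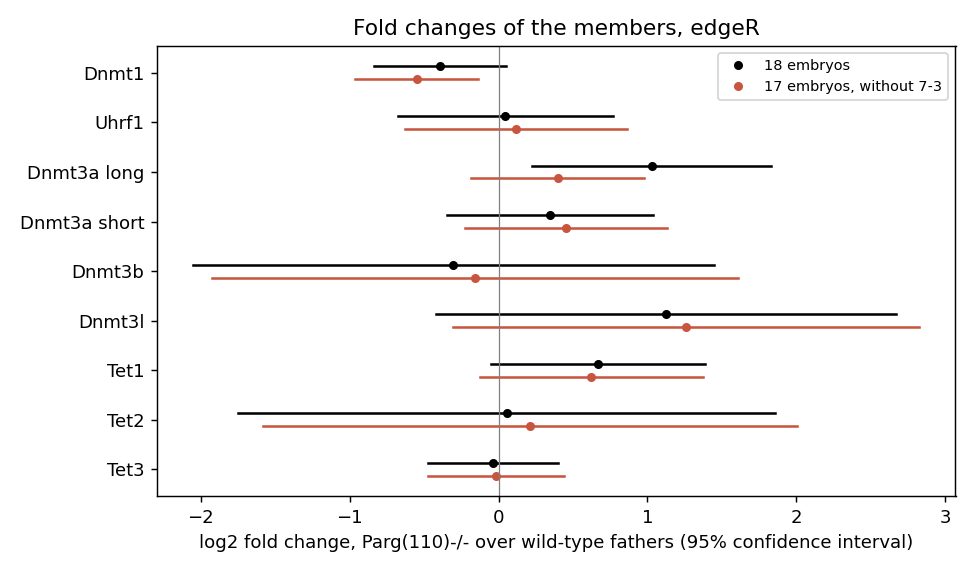
Log2 fold change of each tested member, embryos of Parg(110)-/- over those of wild-type fathers, with 95% confidence intervals from edgeR, for all 18 embryos (black) and without embryo 7-3 (red). The long form of Dnmt3a moved from 1.03 to 0.40 and Dnmt1 from -0.39 to -0.55 when embryo 7-3 was left out.

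The most abundant eraser was also set against the maintenance enzyme within each embryo. The log2 ratio of Tet3 to Dnmt1, each as CPM plus 1, was -4.31 ± 0.50 in the wild-type and -3.93 ± 0.60 in the Parg(110)-/- group (SD, n = 9 each). The groups overlapped, from -4.80 to -3.19 and from -5.01 to -3.18. An exact permutation of the embryos did not separate the group means, which differed by 0.38 (two-sided p = 0.164). Over father means the exact permutation p was 0.4, where 0.1 is the smallest possible. With each father left out in turn the difference ranged from 0.091 without father 8 (exact permutation p = 0.731) to 0.70 without father 7 (exact permutation p = 0.014). Without father 1 it was 0.24 (exact permutation p = 0.438), and without embryo 7-3 it was 0.51 (exact permutation p = 0.049). Embryos of one father are not independent, and these p-values were not adjusted for the number of settings tried.

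Embryos of Parg(110)-/- fathers varied more for 7 of 9 members, by the coefficient of variation of CPM, and less for Tet1 and Tet2. Over all transcripts tested, 62.7% varied more in this group, with a median coefficient of variation of 107% against 95.1%. For Dnmt1 the values were 40.9% and 26.7%, for the short form of Dnmt3a 49.1% and 38.8%, and for Tet3 34.6% and 23.2%. For the long form of Dnmt3a they were 110% and 33.9%, with embryo 7-3 in the first. Dnmt1, Tet1, Tet3, Uhrf1, Dnmt3b and the short form of Dnmt3a stayed below the median transcript in both groups, and Tet2 (114% and 132%) lay above it in both.

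Of the members, 6 had at least 10 counts in every embryo. For these the transcripts with the most similar levels over the 18 embryos were sought among 5114. For Tet3 they were Tiam1 (Pearson's r = 0.846) and Tnrc6b (0.791), and for Tet1 Zfp1 (0.757) and Tjp1 (0.738). The values for Dnmt1 were lower, with Cd164 at 0.647 and Ctdsp1 at 0.632. Uhrf1 was most similar to Epb41 (0.753) and Nup153 (0.706), and the short form of Dnmt3a to Kctd13 (0.788) and Orc2 (0.755). The values for the long form of Dnmt3a, Eya3 (0.814) and Uso1 (0.779), fell to 0.594 and 0.486 without embryo 7-3. These are the highest of many values over 18 embryos that share fathers and an amplification protocol, and they carry no test.

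Genes that work with the members were counted from 6 lists, with transcripts of identical counts taken once. The lists of maintenance, de novo methylation and oxidation include the members themselves. None of their transcripts passed the threshold: 0 of 16 for maintenance and its partners, 0 of 16 for de novo methylation, 0 of 16 for oxidation and base excision repair, 0 of 13 for readers of methylated and unmethylated CG sites, 0 of 17 for protection of methylation after fertilization and 0 of 13 for the supply of methyl donors. At an unadjusted edgeR p-value below 0.05 there were 2, beside 5.80% of all transcripts tested. They were the long form of Dnmt3a, itself a member, and Arid4b (NM_194262), a chromatin protein tied to imprinting. Arid4b had 93.8 to 584 CPM (median 312) in the wild-type and 87.1 to 394 CPM (median 164) in the Parg(110)-/- group (log2 fold change -0.71, adjusted p = 0.835). The median log2 fold changes of the lists were -0.13, 0.03, -0.06, 0.12, 0.04 and -0.46 in the same order, beside -0.02 over all transcripts tested. Without the genes of the members they were -0.14, 0.03 and -0.17 for maintenance, de novo methylation and oxidation, over 11, 8 and 13 transcripts. The lowest median was that of the methyl donor list, where 3 of 13 transcripts had a fold change above 1, beside 49% of all transcripts tested. Over the alternative fits it lay between -0.65 and -0.27, the lower value from limma, where the median of all transcripts was itself -0.19.

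Of each list, the genes other than the members with the smallest p-values in either direction had the following log2 fold changes, none of which passed the threshold (adjusted p of 0.835 or more). Among the partners of maintenance they were 0.53 for Uhrf2, a relative of Uhrf1, 0.12 for the DNA ligase Lig1, -1.37 for the histone methyltransferase Ehmt2 and -1.51 for Cdca7. For de novo methylation they were 0.24 for Nsd1 and 0.14 for Setd2, histone methyltransferases, -0.34 for Mov10l1 and -0.08 for the demethylase Kdm1a. For repair they were 1.03 for Mbd4 and 1.00 for Neil3, DNA glycosylases, -2.02 for Gadd45b and -0.74 for Parp1, which makes the poly(ADP-ribose) that PARG degrades. Among the readers they were 1.72 for Zbtb4, 0.66 for Mbd2, -0.57 for Kdm2b and -1.69 for Mbd1, of which Zbtb4 had a median of 0 CPM in both groups. Among the genes of protection they were 0.48 for Zfp445 and 0.33 for Ctcf, with Arid4b (both transcripts, -0.71 and -0.58) on the other side. For methyl donors they were 1.02 for Shmt2, -1.48 for Bhmt and -0.62 for Mat2a, which makes the methyl donor S-adenosylmethionine. Mat2a had medians of 73.8 and 39.9 CPM, Parp1 55.0 and 46.0, and Ctcf, an insulator protein, 391 and 494, in the wild-type and the Parg(110)-/- group, and the groups overlapped for each.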

How the data were processed

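RNA sequencing was analysed for 18 individual 2-cell embryos, 9 of wild-type and 9 of Parg(110)-/- fathers. They were grouped by their sample titles, of which the first number was read as the father. Per the labels and the study's methods, embryo RNA was amplified by the authors with the WT-Ovation One-Direct kit and sequenced (Illumina HiSeq). They mapped the reads to mm9 with RUM (at most 1 mismatch, non-unique reads excluded) and deposited unnormalized read counts for RefSeq transcripts. The counting tool and read length are not given in the sources used here. A read can be counted on several transcripts of a gene, and amplification can exaggerate the spread between embryos.

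CPM is the count over the file total. TMM-scaled counts entered edgeR 4.0.16 (quasi-likelihood, R 4.3.3, Benjamini-Hochberg over all transcripts, threshold 0.1, at least 10 counts in at least 3 embryos). Standard errors are the log2 fold change over the square root of F. Alternatives were DESeq2 1.42.0, limma 3.58.1 with father as a random effect, other normalizations, filters and thresholds, merged identical transcripts, sums over the embryos of a father, a block for embryo number, each father left out and, chosen after seeing the data, embryo 7-3 left out. The edgeR script was tested on simulated data. P-values over embryos take embryos of a father as independent. Symbols came from a RefSeq table on GRCm38.p6, which held 26136 of 26823 identifiers (NM_027384 was taken as Tet1 from the list of members). Gene positions and transcript lengths are those of GENCODE vM1 on mm9, and promoter sequences those of RefSeq. All members are described. From the companion lists the 2 smallest p-values in each direction are named, except 1 gene that is not reported here, and for the members counted in every embryo the 2 most similar transcripts. Dnmt3c, Cfp1 and Nlrp7 of those lists were not found by symbol. The members and lists were chosen with earlier results of these data known.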

Additional observations from a re-analysis of the deposited data

Results flagged for a closer look

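In all, 5 values lay far from the rest of their group of 9 embryos, the gap to the nearest embryo being more than 0.493 of the range of the group, among 18 groups of values examined. This limit flags about 1 in 20 groups where values are normally distributed. The rate for CPM of amplified single embryos is not known, so the number of flags cannot be set against chance. For the long form of Dnmt3a (NM_007872) they were embryo 7-3 with 788.5 CPM in the Parg(110)-/- group (nearest 178.0, gap 0.849 of the range) and embryo 2-1 with 179.4 CPM in the wild-type group (nearest 106.4, gap 0.584). For Dnmt3l it was embryo 7-2 with 98.53 CPM (nearest 42.8, gap 0.572), for Tet2 the wild-type embryo 3-3 with 61.92 CPM (nearest 21.2, gap 0.664), and for Tet3 embryo 8-3 with 866.9 CPM (nearest 541, gap 0.616). All 5 were high values. The library of 7-3 held 4390779 counts and had a median correlation of 0.773 with the other embryos, within the range of the 18. What set these embryos apart was not tested.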

How the results depend on the processing

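Of 290 recomputed values, 271 were counted as keeping their direction and their side of the threshold. Part of these could hardly change. They include 96 list counts, all at 0, the Tdg detection at 0 in every embryo, and main fold changes repeated for a stricter threshold. The Tet2 detection difference was also counted as kept where it went to 0, without father 8. No member passed an adjusted p-value of 0.1 under any of the 17 fits, the lowest being 0.104 for the long form of Dnmt3a with no filter on low counts. In that fit 0.104 was the smallest adjusted p of any transcript, and this form held rank 2284 by p-value. There 19.7% of transcripts had an unadjusted edgeR p below 0.05, against 5.8% in the main fit. The number of transcripts called, 0 in edgeR, was 38 with DESeq2's Wald test and from 0 to 5 with a father left out (5 without father 6). With the embryo number as a replicate block it was 0, and the block turned the direction of Tet2 only (-0.14). The embryo numbers did not pair the embryos: the median correlation of deviations was 0.001 for same-numbered embryos and -0.002 for the rest.

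Dnmt1, Tet1, Dnmt3l and both forms of Dnmt3a kept their direction in every fit. Uhrf1, Dnmt3b, Tet2 and Tet3 did not. With limma and father as a random effect the log2 fold change was -0.02 (-0.021) for Uhrf1 and -0.59 for Tet2, and with counts summed per father it was -0.02 (-0.023) for Uhrf1 and -0.12 for Tet2. With a father left out the ranges were -0.28 to 0.45 for Uhrf1, -0.95 to 0.24 for Dnmt3b, -0.41 to 0.86 for Tet2, -0.25 to 0.10 for Tet3, -0.75 to -0.22 for Dnmt1, 0.40 to 0.95 for Tet1, 0.31 to 1.39 for the long form of Dnmt3a, 0.073 to 0.661 for the short form and 0.144 to 1.502 for Dnmt3l. The log2 ratio of Tet3 to Dnmt1 differed by 0.091 to 0.703 with a father left out and by 0.51 without embryo 7-3 (exact permutation p = 0.049). With limma the median log2 fold change of all transcripts was -0.19, and values from it are to be read against that shift. Low counts limit the values of Dnmt3b, Dnmt3l and Tet2, which had 10 or fewer counts in some embryos. The part of depth in this was not tested: the embryo with the lowest total, 2-3, had 40 counts of Dnmt3b, 28 of Dnmt3l and 2 of Tet2. The causes of these changes were not tested.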

Other observations

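Father means of Dnmt1 and Tet1 are set side by side. Father 6 had the lowest mean of Dnmt1 (5517 CPM) and the highest of Tet1 (276 CPM), father 1 the highest of Dnmt1 (11646 CPM) and the lowest of Tet1 (80.4 CPM), and father 7 had 10573 and 191 CPM. These values are given without a test.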
